A study of Mus musculus with 12 samples.

Results

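J1 mouse embryonic stem cells (ESCs) that carried a short hairpin RNA against Ino80 (shIno80) were compared between day 4 and day 2 after lentiviral infection. The comparison rests on 4 of the 12 arrays of the series, 2 for each day, and on all 19183 genes that passed the filter on dim probes. Its arrays are those that the deposited value table names as shIno80 at day 4 and at day 2. J1 is an established line of mouse ESCs. The shIno80 groups used here were taken 48 hours (day 2), 96 hours (day 4) and 144 hours (day 6) after infection. The control groups came from J1 cells that received a lentivirus with a hairpin against no mouse gene, named non-targeting (shNT), and were taken at the same times. Both kinds of cells were maintained in ESGRO medium and kept in M15 medium for the infection. The hairpin sequences, the number of hairpins and any selection of infected cells are not given in the sources used here. Both arrays of a group are listed as biological replicates, with no word on separate cultures, so p-values reflect only how far these samples spread, which can include technical variation.

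INO80 is a chromatin remodelling complex that slides nucleosomes and takes part in transcription, DNA replication and repair. Its ATPase is encoded by Ino80, and in mouse ESCs the complex is known to occupy promoters of pluripotency genes. ESCs keep their undifferentiated state through a network of transcription factors that includes OCT4 (Pou5f1), SOX2, NANOG, KLF4 and ESRRB. When that network weakens, mouse ESCs can turn on genes of trophectoderm, the outer epithelium of the blastocyst that forms the placenta, or of the germ layers.

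The scanner files and the value table tie 6 of the 12 arrays to different samples, with shNT and shIno80 exchanged at positions 2 and 3 of each slide. Values follow the value table. Under it, arrays of the same group correlated at 0.991 to 0.994 over kept probes, against 0.948 to 0.987 under the attachments of the scanner files. With those attachments limma called 20 genes between the days in shIno80 (1318 at an unadjusted p under 0.05), 4 higher and 16 lower, so every call below rests on the value table's naming. Each day was hybridised on 1 slide, so day and slide cannot be told apart within a hairpin group. Precision is limited by the number of arrays and by dim probes. 61.8% to 69.1% of probes were well above background, and 0 to 2 probes were saturated. Levels are log2 of the processed intensity relative to the 75th percentile of the array, so a level of 0 equals that percentile. They compare samples for a gene and are not comparable between genes. In these bulk samples, fewer cells of a type and less RNA per cell cannot be told apart.

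The targeted gene was low in the shIno80 arrays of both days. Ino80 stood at 2.75 and 2.68 in shNT and at 0.59 and 0.86 in shIno80 at day 2. At day 4 it stood at 2.27 and 2.16 in shNT and at −0.28 and 0.13 in shIno80. Its level in shIno80 was thus below that in shNT by 1.99 at day 2 and by 2.29 at day 4 on the log2 scale (limma adjusted p = 0.000725 and 2.5e-05), on days at which 12.6% and 42.4% of all genes differed between the hairpins. From day 2 to day 4 it fell by a further 0.80 ± 0.16 in shIno80 (± SE throughout, from limma's fit to all 12 arrays, n = 2 in each group). The adjusted p of this fall was 0.00557, and the change in shNT was −0.50 (adjusted p = 0.0808). These changes did not differ beyond the test (difference −0.30 ± 0.23, adjusted p = 0.451). The naming of the arrays was settled with this gene's level known, so it is not independent evidence of the knockdown.

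Between day 2 and day 4 the knockdown cells lost transcripts of pluripotency regulators and gained those of trophoblast, keratin, junction and contractile genes. Limma called 7462 of the 19183 genes at an adjusted p under 0.05 (38.9%), of which 3976 rose (20.7%) and 3486 fell (18.2%). By at least 2-fold, 1939 rose and 1254 fell. The median change over all genes was 0.036 on the log2 scale. Without replicate 1 of shIno80 at day 2 the count of rises was 2627. In shNT cells over the same interval and on the same slides, 2741 genes were called (14.3%), 1400 higher (7.3%) and 1341 lower (6.99%), and 485 and 525 of these passed 2-fold. Leaving out 1 shNT array gave 444 to 2633 rises and 588 to 1632 falls in shNT, and each of the 4 arrays shifted the count of rises widely. The SD of the change across genes was 0.92 in shIno80 and 0.57 in shNT, and the changes correlated across the 19183 genes at 0.53, over arrays that share their slides. Of the genes called in shIno80, 24.03% were called in the same direction in shNT, which is 65.41% of the shNT calls, and 180 were called in the opposite direction. The change itself differed between shIno80 and shNT for 2943 genes (15.3%), with 1599 above (8.34%) and 1344 below (7.01%) shNT. A constant shift of a slide cancels in that difference, whereas position on the slide goes with the hairpin and cannot be told apart from it. Leaving out 1 of these arrays gave 884 to 1584 above and 599 to 1354 below, with the low counts where replicate 1 of shIno80 at day 2 or any array of day 4 was left out. Set beside each other in the plot of changes in both hairpin groups, pluripotency genes lie mostly below and trophoblast genes mostly above the diagonal.

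**Figure D1:**
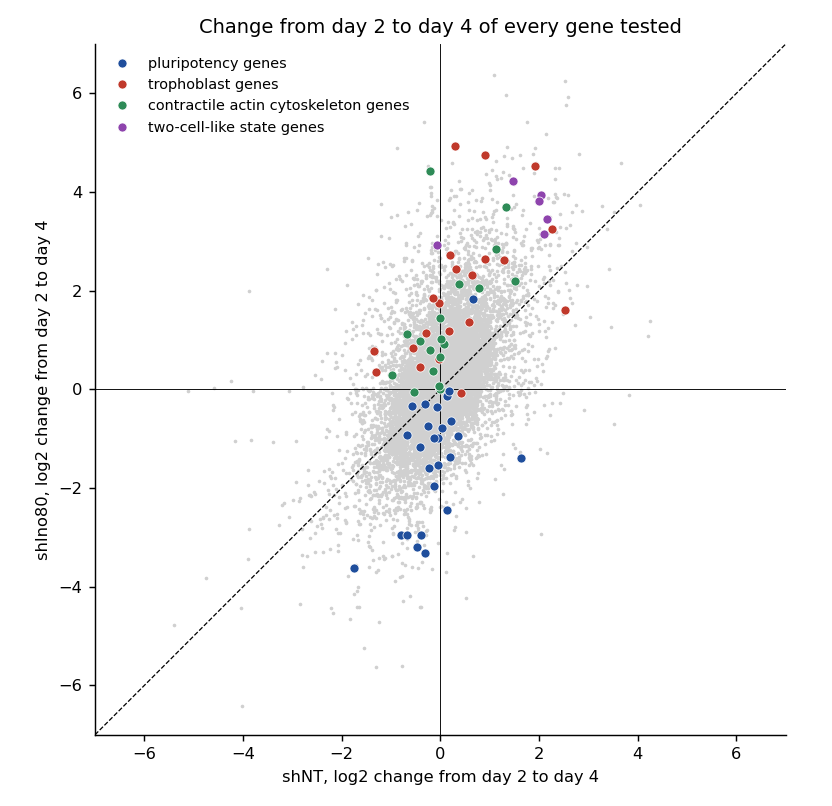
Change from day 2 to day 4 of 19183 genes (grey points) in shNT (horizontal axis) and shIno80 (vertical axis), both as log2 changes between group means of 2 arrays; coloured points are measured members of 4 gene lists and the dashed line marks equal changes. The cloud is taller than it is wide, with an SD of 0.92 in shIno80 and 0.57 in shNT.

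Pluripotency genes fell as a group in the knockdown cells. Of 27 measured, 20 fell, 1 rose and 6 did not pass, with a median change of −0.99 against 0.036 over all genes. In shNT, 3 of the same 27 fell and 1 rose, with a median of −0.12. The change was below that of shNT for 17 of them and above it for none. All 27 were well above background on both arrays of both groups, so the cells of day 4 still carried measurable levels of each.

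Nanog, a homeobox factor that stabilises self-renewal, stood at 3.07 and 2.42 at day 2 and at −0.13 and −0.78 at day 4 in shIno80. It fell 9.20-fold (log2 change −3.20 ± 0.30, adjusted p = 0.000114). In shNT it stood at 3.95 and 3.48, then at 3.32 and 3.18, a change that did not pass (−0.47, adjusted p = 0.322). The arrays of the knockdown days did not overlap, as was the case for 71.4% of all genes, 38.1% with day 4 above and 33.3% with day 4 below. Esrrb, an orphan nuclear receptor of naive pluripotency, went from 4.64 and 4.46 to 1.78 and 1.41 in shIno80 and fell 7.74-fold (−2.95 ± 0.23, adjusted p = 4.49e-05). Another probe of Esrrb fell by 3.71. Klf4, a zinc finger factor used in reprogramming, went from 5.24 and 5.09 to 2.35 and 2.09 and fell 7.71-fold (−2.95 ± 0.16, adjusted p = 1.28e-05). In shNT, Klf4 fell less, by 0.79 (adjusted p = 0.0162), and the changes differed by −2.16 ± 0.23 (adjusted p = 0.00106).

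The largest fall in the list was in Tbx3, a T-box factor of naive ESCs, which fell 12.4-fold (−3.63 ± 0.15, adjusted p = 7.18e-06). It also fell in shNT, by 1.75, and a second probe fell by 2.26 in shIno80. The difference from shNT was −1.87 ± 0.21 for the reported probe (adjusted p = 0.00136). For the second probe it was 1.26 and did not pass (adjusted p = 0.385). Lefty2, a secreted inhibitor of Nodal signalling, fell 9.90-fold, from 2.21 and 1.86 to −0.70 and −1.84. Nr0b1, an orphan receptor gene of ESCs, fell 5.42-fold, while its change in shNT was 0.14. Zfp42 (Rex1), a naive marker, fell 2.89-fold (−1.53 ± 0.14) and Sox2 fell 1.97-fold (−0.98 ± 0.11). Their changes in shNT were −0.06 and −0.12, and both differences passed the test (−1.47 and −0.86, adjusted p = 0.00301 and 0.00917).

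Pou5f1 changed least among the core factors. It stood at 4.86 and 4.71 at day 2 and at 4.18 and 3.84 at day 4, a fall of 0.78 ± 0.17 on the log2 scale (1.71-fold, adjusted p = 0.00791). Without replicate 1 of shIno80 at day 2 the value was −0.70 and without replicate 2 of day 4 it was −0.61, and neither passed. The difference from the change in shNT was −0.80 ± 0.24 and did not pass (adjusted p = 0.0612). Dppa3 (Stella), a gene of germ cells and naive ESCs, was the member that rose, from −1.54 and −1.05 to 0.71 and 0.35 (3.55-fold, adjusted p = 0.0011).

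From day 4 to day 6 in shIno80, 6 of the 27 pluripotency genes rose and 7 fell, with a median of 0.08. Nanog rose by 1.62, Klf4 by 1.05, Esrrb by 1.08 and Lefty2 by 2.01 between day 4 and day 6 (adjusted p = 0.00883, 0.00418, 0.0137 and 0.0118). Sox2 fell by a further 0.64 (adjusted p = 0.00681), and the change of Pou5f1 was −0.02. Between these days 24.3% of all genes were called, 8.67% higher and 15.7% lower, and the values share the day 4 arrays with the comparison above.

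**Figure D2:**
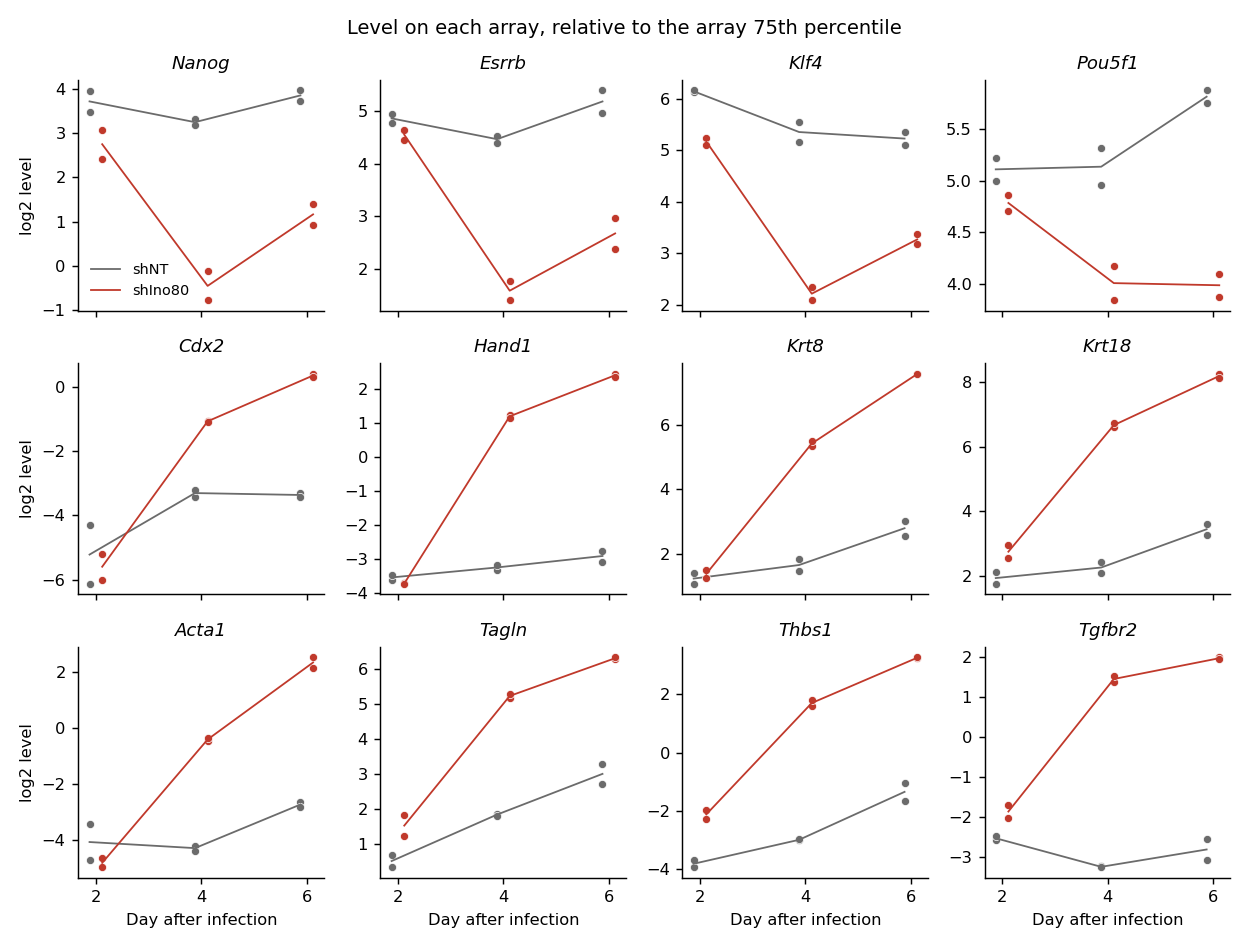
Level of 12 genes on each array (points) by day after infection (horizontal axis), as log2 of the processed intensity relative to the 75th percentile of the array (vertical axis, with its own range in each panel); lines join the means of 2 arrays in shNT (grey) and shIno80 (red). The shIno80 arrays of day 4 lie apart from those of day 2 in every panel, below them for Nanog, Esrrb, Klf4 and Pou5f1 and above them for the other 8 genes.

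Trophoblast genes rose. Of 21 measured, 17 rose, 0 fell and 4 did not pass, with a median change of 1.76. Among the 18 well above background on both arrays of both days, 14 rose and the median was 1.49, and with normexp background correction the median of the list was 1.15. In shNT, 5 rose and 3 fell, with a median of 0.29, and the change was above that of shNT for 13 members and below it for 1. The members that rose include transcription factors of the trophoblast lineage and products of the placenta. Fibroblast markers, which mark another cell type a culture can hold, moved in the same interval, as given further on, and their part in these results was not tested.

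Hand1, a basic helix-loop-helix factor needed for trophoblast giant cells, stood at −3.72 and −3.74 at day 2 and at 1.24 and 1.14 at day 4. It rose 30.3-fold (log2 change 4.92 ± 0.13, adjusted p = 1.39e-06). In shNT it stood at −3.62 and −3.48, then at −3.33 and −3.19, and the change of 0.29 did not pass (adjusted p = 0.158). The difference was 4.63 ± 0.18 (adjusted p = 3.82e-05). Between day 4 and day 6 Hand1 rose by another 1.21 in shIno80 (adjusted p = 0.000884).

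Cdx2, the homeobox factor that specifies trophectoderm, stood at −6.00 and −5.20 at day 2, where 1 of 2 arrays was well above background, and at −1.07 and −1.09 at day 4. The fitted change was 4.52 ± 0.50 (22.9-fold, adjusted p = 0.000259). Cdx2 also rose in shNT, from −6.13 and −4.31 to −3.42 and −3.20 (1.91, adjusted p = 0.0404). The difference between the changes was 2.61 ± 0.71 (adjusted p = 0.0432). It stayed positive, between 2.21 and 2.72, but did not pass without replicate 1 of shIno80 at day 2 or without any 1 of the 4 arrays of day 4.

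Plac1, which encodes a placental membrane protein, was not well above background at day 2 and rose at least 12.4-fold. Id2, an inhibitor of basic helix-loop-helix factors, rose 9.57-fold in shIno80 and by 2.25 on the log2 scale in shNT (adjusted p = 0.00221). Gata3, a zinc finger factor of trophectoderm, rose 6.64-fold (2.73 ± 0.32), from −4.11 and −3.68 to −1.25 and −1.07, with a change of 0.21 in shNT. Tfap2c, an AP-2 factor, rose 6.12-fold, from −1.39 and −0.49 to 1.71 and 1.64.

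Keratin and junction genes, which build the intermediate filaments and cell contacts of simple epithelia such as trophectoderm, rose with them. Of 18 measured, all of them well above background on both days, 14 rose and 0 fell, with a median of 2.00 against 0.54 in shNT, where 5 rose and 1 fell. The change was above that of shNT for 11 and below it for none. Krt8 stood at 1.24 and 1.50 at day 2 and at 5.36 and 5.49 at day 4, a 16.7-fold rise (4.06 ± 0.20, adjusted p = 9.56e-06). In shNT it stood at 1.06 and 1.38, then at 1.45 and 1.84. Its keratin partner Krt18 rose 15.1-fold (3.92 ± 0.20), from 2.56 and 2.95 to 6.61 and 6.72. The differences from shNT were 3.63 ± 0.28 for Krt8 and 3.59 ± 0.28 for Krt18 (adjusted p = 0.000355 for each).

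Krt7, another keratin of simple epithelia, rose 19.9-fold, from −2.21 and −1.49 to 2.42 and 2.50, and a second probe rose by 2.96 on the log2 scale. Krt7 also rose in shNT, by 1.13. Dsp, which encodes the desmosomal linker desmoplakin, rose 13.5-fold (3.75 ± 0.16), with a change of 0.40 in shNT. Cdh1, the gene of E-cadherin, rose 2.15-fold in shIno80 and by 0.63 on the log2 scale in shNT. By day 6 the keratins stood higher again, with further rises of 2.17 for Krt8, 1.52 for Krt18 and 2.55 for Krt7 (adjusted p = 0.000495, 0.00205 and 0.000656).

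**Figure D3:**
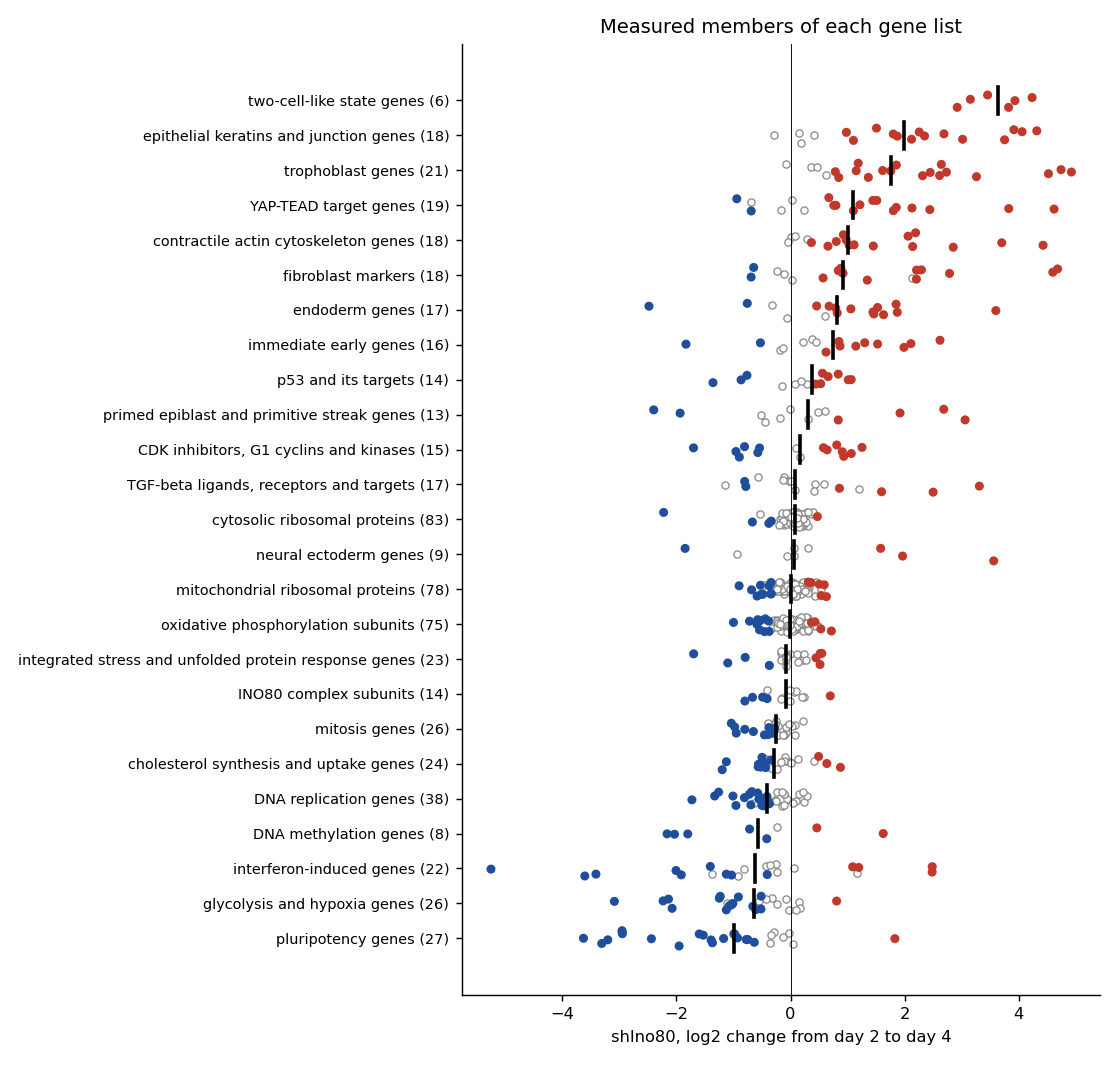
Log2 change from day 2 to day 4 in shIno80 (horizontal axis) of the measured members of each of 25 gene lists (rows, with the number measured); filled points passed limma's test (red higher, blue lower), open points did not, and bars are list medians. Medians range from 3.64 for two-cell-like state genes to −0.99 for pluripotency genes, and the points of the cytosolic ribosomal proteins crowd around 0.

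Contractile genes of the actin cytoskeleton rose as well. Of 18 measured, 14 rose and 0 fell, with a median of 1.00 against −0.01 in shNT, where 4 rose and 2 fell. The change was above that of shNT for 11 and below it for none. Acta1, the skeletal muscle actin gene, stood at −4.99 and −4.68 at day 2 and at −0.46 and −0.36 at day 4, a 21.5-fold rise (4.43 ± 0.35, adjusted p = 5.27e-05). In shNT it stood at −3.45 and −4.72, then at −4.22 and −4.39, so those arrays overlapped. The difference was 4.64 ± 0.50 (adjusted p = 0.00108). Tagln, which encodes the actin-binding protein transgelin, rose 13.0-fold in shIno80, from 1.24 and 1.82 to 5.17 and 5.29, and by 1.33 on the log2 scale in shNT. Cnn1, the calponin gene of smooth muscle, rose 7.22-fold, from −0.50 and 0.01 to 2.55 and 2.66. Cnn1 also rose in shNT, by 1.12 on the log2 scale.

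Target genes of YAP and TEAD, the transcriptional effectors of Hippo signalling that respond to cell shape and density, moved mostly the same way. Of 19 measured, 13 rose and 2 fell, with a median of 1.10. Among the 18 well above background on both days, 12 rose and 2 fell. Without replicate 1 of shIno80 at day 2 or replicate 1 of day 4, 1 fell. In shNT 3 rose and 6 fell, with a median of 0.01, and the change was above that of shNT for 11 members and below it for none. Ankrd1, a nuclear and sarcomeric ankyrin repeat gene, was not well above background at day 2 and rose at least 8.45-fold. Thbs1, the gene of the matrix protein thrombospondin, rose 14.2-fold (3.82 ± 0.21), from −2.28 and −1.96 to 1.59 and 1.82, and by 0.82 in shNT on the log2 scale. Ccn2 (CTGF) rose 5.43-fold in shIno80 and by 1.59 on the log2 scale in shNT. Lats2, a kinase gene that is both target and inhibitor of YAP, rose 2.15-fold in shIno80 and fell by 1.70 on the log2 scale in shNT (adjusted p = 0.00392 and 0.00222). The 5′-nucleotidase gene Nt5e rose 2.32-fold in shIno80 and fell by 1.77 in shNT. Fjx1 was among the members that fell (1.92-fold).

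The promoters of Acta1 and Ankrd1 are shown because Acta1 made the largest rise of the contractile list, Ankrd1 rose from levels not well above background, and both windows hold motifs tied to these lists. SRF binds the CArG box of muscle actin genes, and GGAATG is a core of TEAD sites. The windows are the 250 bases before the RefSeq start sites in GRCm38.p6, at chr8:123894776-123895025 (minus strand) for Acta1 and at chr19:36119845-36120094 (minus strand) for Ankrd1. Both are written 5′ to 3′ along the gene, with a CArG box and GGAATG on either strand in capitals for Acta1 and GGAATG for Ankrd1.

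Acta1: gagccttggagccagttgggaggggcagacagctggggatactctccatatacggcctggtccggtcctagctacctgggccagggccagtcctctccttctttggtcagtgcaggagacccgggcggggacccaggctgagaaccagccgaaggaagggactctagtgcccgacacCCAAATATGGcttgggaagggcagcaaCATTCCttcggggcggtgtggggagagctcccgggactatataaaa
Ankrd1: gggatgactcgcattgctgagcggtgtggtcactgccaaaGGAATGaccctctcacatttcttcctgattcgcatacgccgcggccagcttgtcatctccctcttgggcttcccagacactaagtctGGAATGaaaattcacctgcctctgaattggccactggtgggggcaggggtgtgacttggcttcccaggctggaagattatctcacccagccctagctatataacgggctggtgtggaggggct

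The CArG box of Acta1 lies at positions −73 to −64 from the start site. On both strands of such windows, a CArG box was found in 1.47% of 32841 promoters and in 4 of 16 matched contractile genes. GGAATG was found in 12.6% of all promoters, in 7 of 16 contractile genes and in 7 of 13 matched YAP-TEAD targets. These motifs do not overlap in the windows shown, and a match describes letters in the window, not binding. All promoters were counted singly, whereas a listed gene counted if any of its promoters matched, so these shares are not strictly alike.

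Within the TGF-beta pathway, whose ligands signal through a receptor pair to SMAD factors, 4 of 17 measured genes rose and 2 fell, with a median of 0.09. The share called was 35.3%, near the 38.9% of all genes, so the list as a whole did not stand out. Leaving out 1 shIno80 array gave 0 to 2 falls. Among the ligands, Tgfb3 rose 5.65-fold (2.50 ± 0.22), from −4.84 and −4.73 to −2.47 and −2.10, with a change of 0.40 in shNT. The ligand gene Tgfb1 fell by 0.80 ± 0.23 (adjusted p = 0.0263), with −0.29 in shNT. Among the receptors, Tgfbr2 stood at −2.04 and −1.69 at day 2 and at 1.37 and 1.51 at day 4, a 9.91-fold rise (3.31 ± 0.18, adjusted p = 1.25e-05), while in shNT it fell by 0.71 (adjusted p = 0.0351). A second probe of Tgfbr2 rose by 1.60 in shIno80. Ltbp2, which encodes a matrix protein of the latent TGF-beta binding family, rose 3.02-fold, and a second probe rose by 0.92 on the log2 scale.

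Immediate early genes, the first transcripts to answer growth factors or stress, rose in part. Of 16 measured, 9 rose and 2 fell, with a median of 0.74 against 0.07 in shNT. Jun, an AP-1 subunit, rose 6.15-fold in shIno80, from −3.04 and −2.63 to −0.33 and −0.11, and by 1.32 on the log2 scale in shNT. Atf3, a stress-induced factor, rose 4.32-fold and Dusp1, a phosphatase of MAP kinases, rose 3.97-fold (1.99 ± 0.14, with −0.22 in shNT). Egr1 went the other way and fell 3.56-fold, from 1.99 and 2.26 to 0.20 and 0.40, and by 0.83 in shNT.

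Genes of other lineages did not move as one, and those of endoderm, given further on, mostly rose. Of 13 measured genes of the primed epiblast and primitive streak, 4 rose and 2 fell, with a median of 0.31. That median was −0.00 among the 11 well above background on both days and 0.007 with normexp background correction. In shNT 3 of these genes rose and 2 fell, with a median of 0.35. The share called in shIno80 was 46.2%, against 38.9% of all genes. Fgf5, a growth factor of the primed epiblast, stood at −4.11 and −3.90 at day 2 and at −1.49 and −1.15 at day 4 (2.69 ± 0.28, 6.43-fold, adjusted p = 0.000195). Its change in shNT was −0.02, and the difference was 2.70 ± 0.40 (adjusted p = 0.00395). Wnt3, a ligand of primitive streak induction, rose 8.34-fold in shIno80 and by 0.88 on the log2 scale in shNT. Otx2, a factor of the primed epiblast, fell 5.27-fold in shIno80, from 1.65 and 1.31 to −0.53 and −1.31. Otx2 also fell in shNT, by 1.35, and the difference of −1.05 ± 0.38 did not pass (adjusted p = 0.105).

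Of 17 measured endoderm genes, 12 rose and 2 fell, with a median of 0.82 against −0.06 in shNT, and 11 rose and 1 fell among the 14 well above background on both days. Without replicate 1 of shIno80 at day 2 or replicate 2 of day 4, 1 fell. Foxa2, a forkhead factor of definitive endoderm, rose in both kinds of cells. In shIno80 it went from −5.51 and −4.88 to −1.82 and −1.37 (3.60 ± 0.37) and in shNT from −5.26 and −4.17 to −1.45 and −0.95 (3.51), with a difference of 0.08 ± 0.52 (adjusted p = 0.943). Gata6, a factor of primitive endoderm, stood at −4.67 and −4.23, then at −4.65 and −4.38 in shIno80, where the arrays overlapped (−0.06 ± 0.30, adjusted p = 0.89). In shNT it rose by 1.62 (adjusted p = 0.011), and the difference was −1.68 ± 0.43 (adjusted p = 0.0333). Without replicate 2 of shIno80 at day 2, without replicate 1 of shNT at day 2 or without any 1 of the day 4 arrays, that difference lay between −1.34 and −1.83 and did not pass. A second probe of Gata6 stood at 0.21 in shIno80, and its difference from shNT of −0.46 did not pass (adjusted p = 0.306). Hnf4a, a nuclear receptor of visceral endoderm and liver, fell at least 1.67-fold to levels not well above background. In shNT Hnf4a fell by 1.35 on the log2 scale, and 1 of 2 arrays of day 4 was well above background there. Afp, another gene of the list, was not well above background at day 2 and rose at least 1.555-fold. In shNT Afp was not well above background on either day.

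Among 9 measured neural ectoderm genes, 3 rose and 1 fell, with a median of 0.06 that was −0.00 with median scaling. In shNT 3 rose and 1 fell, with a median of 0.71. The share called in shIno80 was 44.4%, against 38.9% of all genes. Without replicate 1 of shIno80 at day 2, or without either shNT array of day 2, 2 fell. Dlx2, a homeobox factor, was not well above background at day 2 and rose at least 6.33-fold, and it rose in shNT by 2.43 (adjusted p = 0.0244). Ncam1, a cell adhesion gene, fell 3.60-fold, but its 7 other probes ranged from −1.77 to 0.54, with 2 of them called lower and the highest not passing.

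Fibroblast markers, which ESC cultures can pick up from other cells, were examined as a check of the cell type. Of 18 measured, 12 rose and 2 fell, with a median of 0.92. With normexp background correction the median was 0.395, and with genes below background at their bound it was 0.70. Among the 10 well above background on both arrays of both days, 7 rose and 1 fell. No marker fell without replicate 1 of shIno80 at day 2, and 1 fell without either shIno80 array of day 4. Their summed level, as linear signal relative to the 75th percentile, was 3.01 and 2.90 in shIno80 at day 2 and 7.31 and 7.89 at day 4. In shNT it was 3.35 and 2.87, then 2.57 and 2.95. S100a4, a calcium-binding protein gene, rose 25.6-fold and the matrix gene Dcn at least 19.7-fold, both also higher in shNT by 1.45 and 1.93 on the log2 scale. Col1a1, a collagen gene, rose 4.62-fold in shIno80, with −0.03 in shNT. Among the defining markers, Dcn and Lum were not well above background at day 2 and were so on both arrays of day 4. Lum rose at least 1.48-fold (adjusted p = 0.00652). Its change in shNT was −0.05, and it was not well above background there on either day. Prrx1 was well above background on 1 of 2 arrays on each day, and Twist2 on 0 and then 1 of 2 arrays. Thy1 fell by 0.69, though not beyond the test without replicate 1 of shIno80 at day 2 (−0.48) or replicate 2 of day 4 (−0.68).

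DNA replication genes fell. Of 38 measured, 20 fell and 0 rose, with a median of −0.41 against 0.05 in shNT, where 1 rose and 1 fell. The change was below that of shNT for 10 of them and above it for none. Fitted on the 4 shIno80 arrays of these days alone, 12 fell. Pola1, which encodes the polymerase that works with primase to start new strands, stood at 2.32 and 2.51, then at 0.87 and 0.50 (3.31-fold lower, −1.73 ± 0.16, adjusted p = 9.57e-05). Mcm10, a replication initiation factor, fell 2.51-fold, Rrm2, a ribonucleotide reductase subunit, 2.40-fold, and Mcm2, a subunit of the replicative helicase, 1.94-fold. Their changes in shNT were −0.18, −0.20 and 0.04.

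Of 26 mitosis genes, 10 fell and 0 rose, with a median of −0.26 against −0.01 in shNT. The share called was 38.5%, near the 38.9% of all genes, and the change was below that of shNT for 1 member. Without replicate 2 of shIno80 at day 2, or without either day 4 array of shIno80, 6 fell, and fitted on the shIno80 arrays of these days alone, 5 fell. The topoisomerase gene Top2a fell by 1.04 ± 0.17 and the spindle checkpoint gene Bub1b by 0.98 ± 0.16 on the log2 scale. Of 15 genes of CDK inhibitors, G1 cyclins and their kinases, 7 rose and 6 fell. Leaving out replicate 1 of shIno80 at day 2 gave 4 and 2, leaving out replicate 1 of day 4 gave 4 rises, and leaving out replicate 2 of day 4 gave 3 falls. Ccnd1, the gene of cyclin D1, fell 3.25-fold, from 2.04 and 1.58 to 0.24 and −0.02. Cdkn2a, which encodes the inhibitors p16 and p19ARF, rose 2.38-fold (1.25 ± 0.12), with 0.08 in shNT.

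Cdkn1a, the gene of the inhibitor p21 and a p53 target, stood at −0.08 and −0.29 at day 2 and at 0.76 and 0.50 at day 4 (0.81 ± 0.17, adjusted p = 0.0058). Its change in shNT was −0.43, and the difference was 1.24 ± 0.24 (adjusted p = 0.0114). Of 14 other genes of p53 and its targets, 7 rose and 3 fell, and leaving out replicate 1 of shIno80 at day 2, replicate 1 of day 4 or replicate 2 of day 4 gave 4, 4 and 3 rises. The largest change in the list was a fall, in Gdf15, by 1.36 ± 0.14 (adjusted p = 0.000211), and Gdf15 fell by 0.90 in shNT. The apoptosis gene Pmaip1 (Noxa) rose by 1.06 ± 0.12 and Mdm2, the ubiquitin ligase gene for p53, by 1.01 ± 0.15.

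Genes of glycolysis and the hypoxia response fell. Of 26 measured, 15 fell and 1 rose, with a median of −0.64, and the rise was lost without replicate 2 of shIno80 at day 4. In shNT 9 fell and 0 rose, with a median of −0.36. Pfkp, a phosphofructokinase gene, stood at 3.20 and 3.03 at day 2 and at −0.01 and 0.07 at day 4, an 8.49-fold fall (−3.09 ± 0.17, adjusted p = 1.25e-05). In shNT it fell by 1.47 (adjusted p = 0.00168). Bnip3, a mitophagy gene induced by hypoxia, fell 4.70-fold in shIno80 and by 0.96 on the log2 scale in shNT. Egln3, an oxygen-sensing prolyl hydroxylase gene, fell 4.40-fold in shIno80 and by 1.37 in shNT.

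Genes of the DNA methylation machinery moved in both directions, with 5 of 8 lower and 2 higher, or 4 and 1 with median scaling. The methyltransferase gene Dnmt3a fell 4.48-fold, with other probes at −0.45, which did not pass, and −2.05. Tet1 and Tet2, which encode enzymes that oxidise methylcytosine, fell 3.48-fold and 4.09-fold. Their relative Tet3 rose 3.08-fold, although a second probe stood at 0.20 and did not pass.

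Interferon-induced genes, which defend against viruses, were split. Of 22 measured, 9 fell and 4 rose, with a median of −0.62, or −0.295 with normexp background correction. In shNT 6 fell and 2 rose, with a median of −0.42. The change was below that of shNT for 5 members and above it for 0. Among the 10 well above background on both arrays of both days, 5 fell and 1 rose. The falls were led by members of the oligoadenylate synthetase family, which are similar in sequence, so that their probes may share signal. Oas1a stood at −0.30 and −0.85 at day 2 and at −5.48 and −6.16 at day 4, where 1 of 2 arrays was well above background. The fitted change was −5.25 ± 0.25 (38.0-fold, adjusted p = 8.75e-06), and Oas1a fell by 1.54 in shNT. Oas1d fell at least 7.45-fold in shIno80 and by 1.13 on the log2 scale in shNT. Tgtp1, a GTPase gene, fell at least 3.53-fold, with a second probe at −0.63 that did not pass. Ifih1, which encodes the RNA sensor MDA5, rose at least 3.29-fold.

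The promoter of Oas1a is shown because the gene fell most in this list. It lies at chr5:120907526-120907775 (minus strand, GRCm38.p6, RefSeq start site), and the core of interferon-stimulated response elements, GAAA then NN then GAAA, is in capitals. It occurs at positions −20 to −11 and −14 to −5 from the start site, in copies that overlap each other.

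Oas1a: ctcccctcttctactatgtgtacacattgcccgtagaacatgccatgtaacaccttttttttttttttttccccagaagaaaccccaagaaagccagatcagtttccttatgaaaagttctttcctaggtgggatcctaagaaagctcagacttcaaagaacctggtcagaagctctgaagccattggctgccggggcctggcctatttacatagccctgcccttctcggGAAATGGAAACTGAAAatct

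The same core was found on either strand in 2.98% of 32841 promoters of this length and in 9 of 16 matched interferon-induced genes. Listed genes were again counted if any of their promoters matched.

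Genes of the two-cell-like state, which rare ESCs share with the embryo at that stage, rose in both kinds of cells. Of 6 measured, 6 rose in shIno80, with a median of 3.64, and 5 rose in shNT, with a median of 2.02. The change was above that of shNT for 2. Zfp352 rose 18.8-fold (4.23 ± 0.33), from −4.35 and −4.56 to −0.20 and −0.24, and by 1.48 on the log2 scale in shNT. Tcstv1 rose 15.3-fold and Tcstv3 14.1-fold in shIno80, and by 2.04 and 2.00 in shNT. Zscan4c rose 8.89-fold, from 2.07 and 0.32 to 4.38 and 4.32, so the day 2 arrays lay far apart. Members of these families are near-identical copies, and their probes cannot be told apart with certainty.

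Genes of general metabolism and protein synthesis moved little. Of 83 cytosolic ribosomal protein genes, 1 rose and 4 fell, with a median of 0.08 that was −0.01 with quantile normalization, and leaving out 1 of the 8 arrays of these days gave 0 to 5 rises and 2 to 4 falls. Rpl39l, a testis and ESC paralogue of Rpl39, stood apart, from 3.36 and 3.29 to 1.15 and 1.06 (4.67-fold lower, −2.22 ± 0.15), with 0.45 in shNT. Of 78 mitochondrial ribosomal genes, 7 rose and 10 fell, and leaving out 1 array gave 1 to 9 and 5 to 13. Of 75 subunits of oxidative phosphorylation, 4 rose and 11 fell, which became 0 to 6 and 7 to 11. Sdhc, a subunit gene of complex II, fell by 1.00 ± 0.11 and Mrps27 by 0.90 ± 0.16 on the log2 scale. Medians of these lists were 0.01 and −0.01 and changed sign with scaling or background correction.

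Of 24 cholesterol synthesis and uptake genes, 10 fell and 3 rose, but 1 fell and 1 rose without replicate 1 of shIno80 at day 2 or without replicate 2 of day 4. Without replicate 1 of day 4 the falls were 4, and without either shNT array of day 4 they were 5. Nsdhl, a sterol synthesis gene, fell by 1.20 ± 0.12. Of 23 genes of the integrated stress and unfolded protein responses, 4 rose and 4 fell, and leaving out 1 array of these 2 groups gave 0 to 2 rises and 2 falls. Xbp1, a factor of the unfolded protein response, fell 3.24-fold. Among 14 measured subunits of the INO80 complex, 4 fell and 1 rose, which became 2 and 0 without replicate 1 of shIno80 at day 2 or without replicate 2 of day 4. Besides Ino80, the actin-like subunit gene Actl6a fell by 0.67 ± 0.11, with −0.06 in shNT. The shares called were 35.7% of the INO80 subunits and 34.8% of the stress response genes, near the 38.9% of all genes.

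**Figure D4:**
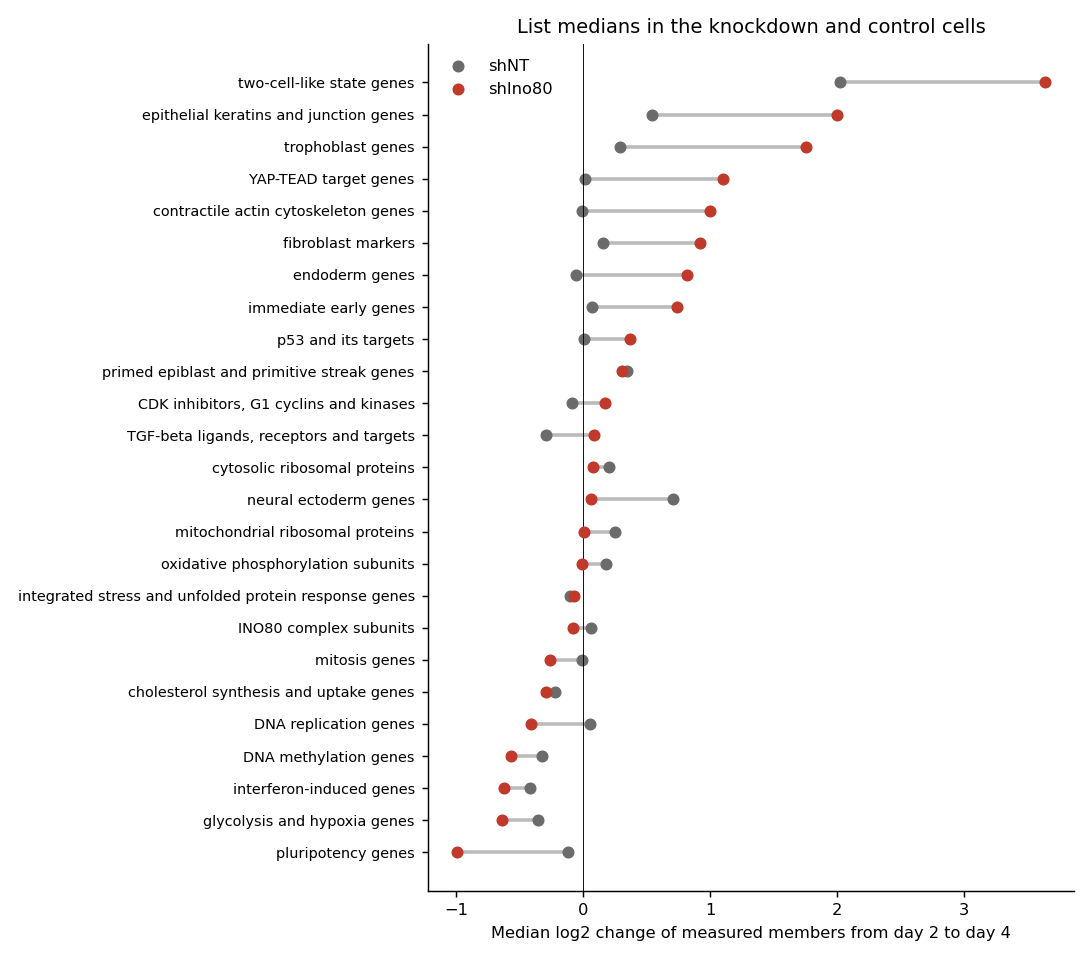
Median log2 change from day 2 to day 4 (horizontal axis) of the measured members of each gene list (rows) in shNT (grey) and shIno80 (red), from 2 arrays per group and day. Two-cell-like state genes have high medians in both (2.02 and 3.64), whereas the medians of contractile genes are −0.01 in shNT and 1.00 in shIno80.

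Over all named genes, the largest rises from measurable levels included those of Stmn4, Pax1, Hand1, Prss23, S100a4, Car4, Acta1, Anxa1 and Slc25a24. Stmn4, a stathmin gene that regulates microtubules, stood at −3.41 and −2.57 at day 2 and at 3.14 and 3.39 at day 4. It rose 76.6-fold (6.26 ± 0.29, adjusted p = 8.14e-06), and by 2.52 on the log2 scale in shNT. Pax1, a paired box factor, rose 62.4-fold, but a second probe stood at 1.08 and did not pass. Prss23, a serine protease gene, rose 29.5-fold, and its second probe rose by 1.75 on the log2 scale. Car4, a carbonic anhydrase gene, rose 22.5-fold and Anxa1, an annexin gene, 20.7-fold. In shNT, Prss23, Car4 and Anxa1 rose as well, by 1.93, 2.32 and 0.93 on the log2 scale. The change of Pax1 in shNT was 1.33 and did not pass.

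From levels not well above background at day 2, Csf1, the gene of the macrophage growth factor M-CSF, rose at least 66.5-fold, to −0.01 and 0.10 at day 4. It rose by another 2.39 by day 6 (adjusted p = 0.000168). The alarmin cytokine gene Il33 rose at least 27.4-fold, Mab21l4 at least 31.9-fold and Tsga8 at least 12.5-fold. In shNT, Il33 and Mab21l4 rose by 2.59 and 1.76 on the log2 scale, from levels not well above background at day 2. The change of Tsga8 in shNT was 0.83 and did not pass, and Csf1 was not well above background there on either day.

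The largest falls that stayed measurable included those of Prmt8, Platr26, Slc11a1, Lrrc34, Lrrc2, Pdcl2, Igsf21, Notch4 and Oas1f. Prmt8, an arginine methyltransferase gene, stood at 0.25 and −0.08 at day 2 and at −4.29 and −4.38 at day 4, a 21.5-fold fall (−4.42 ± 0.18, adjusted p = 7.18e-06). It also fell in shNT, by 2.22. Notch4, a Notch receptor gene, fell 13.7-fold in shIno80 and by 1.87 on the log2 scale in shNT. A2m, the gene of the protease inhibitor alpha-2-macroglobulin, fell at least 67.4-fold in shIno80 and by 4.01 on the log2 scale in shNT, while its other probe fell by 1.45 in shIno80. Gbp4, a guanylate-binding protein gene, fell at least 6.94-fold and Lrrc31 at least 12.5-fold. In shNT they fell by 1.67 and 1.83 on the log2 scale. Myo18b fell at least 8.85-fold in shIno80 and by 1.70 on the log2 scale in shNT, but its second probe stood at −0.44 in shIno80 and did not pass.

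Ranked by the difference between the hairpin groups, Acta1, Hand1, Synpo2l, Jaml and Slco2a1 were among the genes farthest above shNT. Synpo2l, an actin-associated gene of heart and skeletal muscle, went from 0.71 and 1.22 to 4.41 and 4.70 in shIno80, against −1.11 and −0.32, then −1.67 and −1.06 in shNT. The difference was 4.25 ± 0.46 (adjusted p = 0.00114), and that of a second probe of Synpo2l was 2.42 (adjusted p = 0.0209). Jaml, a junctional adhesion gene, differed by 4.20 ± 0.35 and Slco2a1, a prostaglandin transporter gene, by 4.10 ± 0.27, though a second probe of Slco2a1 differed by 0.93. Among those farthest below shNT were Lrrc34 (−4.00 ± 0.32), Nsg2 (−3.44 ± 0.56), Myo1f (−3.16 ± 0.22), Accsl (−3.13 ± 0.22) and Klk1 (−3.07 ± 0.27). Lrrc34, a leucine-rich repeat gene, went from 2.00 and 2.51 to −2.04 and −2.27 in shIno80, against 2.94 and 3.48, then 2.68 and 2.94 in shNT. A second probe of Klk1 differed by −0.52 and did not pass.

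Some genes changed in the same direction in both kinds of cells. Besides Foxa2, the rises that were large in both were in Coch (3.24 in shIno80 and 3.37 in shNT), Slc23a1 (3.72 and 3.28), Sox18 (2.88 and 2.98) and Tmem54 (3.74 and 2.75). The falls that were large in both were in Trem2 (−3.36 and −2.80), Crtac1 (−2.75 and −3.27), Creb3l3 (−3.30 and −2.54), Kdr (−2.78 and −2.50) and Rec114 (−3.29 and −2.38). Their differences ranged from −0.92 for Rec114 to 0.99 for Tmem54, with SE between 0.22 and 0.61, and none passed the test with all arrays. Kdr, the receptor gene for VEGF, rose again by 2.19 in shIno80 between day 4 and day 6 (adjusted p = 0.00173), while Sox18, a factor of vascular development, fell by 1.62 (adjusted p = 0.00299).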

How the data were processed

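Total RNA of 12 J1 samples was hybridised to 1-colour Agilent arrays, 2 per hairpin and day. Per the file headers, Agilent Feature Extraction 9.5.3.1 made the processed intensity of each spot, with background subtraction and detrending within the array. The authors also deposited a value table of log2 values, whose columns name the samples; each of its columns was matched to 1 array by its values. The sample labels name Cy5, whereas the files hold green-channel columns. Control spots were left out, and 125 probes were dropped for non-uniformity or outlier marks.

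Intensities were divided by the 75th percentile of the array and turned to log2. Of 41174 probes, 22951 took their gene from a RefSeq accession, 6659 from a current symbol and 3109 from an outdated one, and for 8455 the array's own name stayed. The filter kept 28654 probes that some group had well above background on each of its arrays, and the brightest probe over all arrays stood for each of 19183 genes, 14997 of them with a gene name. Limma 3.58.1 in R 4.3.3 fitted 6 group means to the 12 arrays (6 residual and 2.18 prior degrees of freedom), with Benjamini-Hochberg adjustment over all genes and a threshold of 0.05. A fold is 2 to the power of the log2 change. An "at least" fold sets the mean of the bright group against the mean of, per dim array, the higher of the lowest signal well above background and the probe's own. Simulated arrays, with 100 changed genes of each size among 19183, recovered 58% of changes of 1 and 86% of changes of 2 on the log2 scale. They gave 12 false calls. Far fewer genes changed there than the 38.9% called in the data, so these rates need not hold for the data.

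The members and the 25 gene lists (645 of 663 members measured) were chosen with earlier results of these data known. Named genes were a fixed set of 14, the largest rises and falls, the largest "at least" folds, up to 3 leading members and the leading opposing member of each list, and the largest differences from or changes in common with shNT. Gata3, Tfap2c, Id2, Dsp, Cdh1, Col1a1, Mcm2, Lats2, Nt5e, Nr0b1, Zscan4c and the fibroblast markers Prrx1 and Twist2 were named after their values were seen. Of the genes the rule selects, 2 are not reported here. Of 61 other probes of named genes, 59 moved in the same direction as the reported probe and 2 moved the opposite way without passing. For the normexp alternative, the local background of 57 spots over 2 times the array median was set to that median. Replicate numbers were not taken as pairs, since the replicate differences of 2 groups correlated over genes at 0.099 for shIno80 at day 2 and day 4, at 0.088 to 0.296 between the other groups of these days, and at as low as −0.171 where day 6 was included. Alternatives covered scaling, background, value source, array naming, filters, probe choice, pairing and each array left out.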

Additional observations from a re-analysis of the deposited data

Results flagged for a closer look

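The change from day 2 to day 4 differed between shIno80 and shNT for 21 of 33 named genes (limma's interaction contrast, adjusted over all genes). Of all 19183 genes, 15.3% differed. Some of the 33 were picked for a large difference that passed and some for changes in common with shNT. The count of 21 was thus partly fixed by the choice and is no result about these genes. Among regulators, the log2 change in shIno80 minus that in shNT was −2.73 for Nanog, −2.56 for Esrrb, −2.16 for Klf4, −1.47 for Zfp42, −0.86 for Sox2 and −1.68 for Gata6. It was 4.63 for Hand1, 2.61 for Cdx2, 2.70 for Fgf5 and 1.24 for Cdkn1a. Among keratin, surface and contractile genes, it was 3.63 for Krt8, 3.59 for Krt18, 4.20 for Jaml, 4.10 for Slco2a1, 4.64 for Acta1 and 4.25 for Synpo2l. The other genes lay below shNT, by −4.00 for Lrrc34, −3.44 for Nsg2, −3.16 for Myo1f, −3.13 for Accsl and −3.07 for Klk1. Second probes of Gata6 and Klk1 differed by −0.46 and −0.52 and did not pass (adjusted p = 0.306 and 0.193). Of the 21, 10 were higher and 11 lower in shIno80. Each group has 2 arrays, too few for a test of single arrays that stand apart.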

How the results depend on the processing

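The naming of the arrays decided the results, and the cause of the mismatch was not tested. Under the scanner file attachments limma called 4 genes higher and 16 lower in shIno80 (1318 at an unadjusted p under 0.05), 39 and 55 in shNT, and 0 and 0 for the difference (113 unadjusted). Ino80 in shIno80 minus shNT was then 0.106 at day 2 and 0.155 at day 4. The shIno80 change turned for Gata6 (0.631) and Nt5e (−0.345). The difference from shNT turned for Cdx2 (−1.212), Creb3l3 (0.418), Fgf5 (−0.377), Foxa2 (−0.389), Hand1 (−0.037), Ino80 (0.049), Jaml (−0.146), Kdr (0.179), Klf4 (0.109), Klk1 (0.523), Krt18 (−0.152), Krt8 (−0.033), Myo1f (0.007), Nanog (0.165), Rec114 (1.249), Slc23a1 (−0.342), Sox18 (0.023), Synpo2l (−0.196) and Tmem54 (−1.182).

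With no filter on dim probes, 829 genes were higher in shNT and 764 differences lay below shNT. Fitted on the groups compared alone, shNT gave 361 higher and 476 lower, and 756 differences lay below shNT. Leaving out 1 array gave 2627 to 4368 rises in shIno80, 444 to 2633 rises and 588 to 1632 falls in shNT, and differences of 884 to 1584 above and 599 to 1354 below shNT. Values near 0 changed sign without passing the test. For the shIno80 change of Gata6 these were 0.035 with normexp, 0.071 with the mean of probes, and −0.288 to 0.159 with 1 array left out. For the difference of Foxa2 they were −0.011 with median scaling, −0.055 with normexp, −0.133 with the value table, and −0.462 to 0.631 with 1 array left out. Kdr gave 0.004 with normexp, and with 1 array left out Kdr gave −0.669 to 0.112, Slc23a1 −0.029 to 0.909 and Sox18 −0.405 to 0.215.

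The replicate block, in which arrays share only a number, gave 7659 calls in shIno80, 2798 in shNT and 2924 differences, and changed no named call. Quantile normalization, the value table and keeping marked spots changed no call among the 140 named shIno80 changes. Median scaling, normexp, the mean of probes and no filter ended 1 each. Fitting only the groups compared ended 4. Without shIno80 replicate 1 or 2 of day 2, 10 and 1 were lost, and without replicate 1 or 2 of day 4, 6 and 10. Among the 33 named differences from shNT, quantile normalization and fitting only the groups compared ended 1 call each, and no filter ended 2. Normexp and the value table added 1 each. Dim probes limit the size of folds against groups near background.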

Other observations

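Between day 4 and day 6 in shIno80, genes that had risen by day 4 went both ways. Of 6 two-cell-like genes, 3 fell and 0 rose, with changes of −1.24 for Zfp352 and −2.28 for Zscan4c (limma adjusted p = 0.031 and 0.0267). Those of Tcstv1 and Tcstv3 were −1.56 and −1.45 and did not pass. Acta1, Thbs1 and Col1a1 rose by 2.76, 1.56 and 1.52 (adjusted p = 0.00194, 0.00227 and 0.000407), and 15 of 18 contractile genes rose and 0 fell. The changes of the matrix genes Dcn and Lum were 0.30 and 0.06 and did not pass (adjusted p = 0.537 and 0.952). Of 18 fibroblast markers, 4 rose and 0 fell. Rpl39l, which had fallen, fell by another 2.28 (adjusted p = 0.000161). These values share the day 4 arrays with the comparison of day 4 and day 2.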
